A study of Homo sapiens with 5 samples.

Results

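The 9 human PAX genes (PAX1 to PAX9) were taken as their RefSeq gene records in GRCh38.p14 with 2 kb on either side, 9 of 19974 protein-coding records on the autosomes and the X chromosome, and read against lists of called ChIP-seq intervals. ChIP-seq sequences the DNA that an antibody pulls down with a chromatin protein or histone mark. The cells were HT1376, an established human bladder carcinoma line. They received 250 nM CPI-0209, an inhibitor of EZH2, or the vehicle DMSO for 8 days. The 4 libraries with interval lists were H3K27me3 in CPI-0209 cells, H3K27me3 in DMSO cells, EZH2 in CPI-0209 cells and EZH2 in DMSO cells, with 1 library per group. An input library is the remaining one of 5 samples, and no list of it was analysed here. The labels give no number of cultures, and the extraction text also names cells treated for 4 days, which were not analysed here.

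PAX proteins are transcription factors that bind DNA through a paired domain, and most of them set organ identity in the embryo. By structure they fall into 4 groups of paralogues: PAX1 with PAX9, PAX2 with PAX5 and PAX8, PAX3 with PAX7, and PAX4 with PAX6. Genes of this kind are textbook targets of Polycomb in cells that do not use them: EZH2, the catalytic subunit of Polycomb repressive complex 2, trimethylates lysine 27 of histone H3 (H3K27me3), and the mark goes with a silent gene. In mammals Polycomb binding is concentrated at promoters rich in CG dinucleotides.

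A list gives, for each interval, its chromosome, start and end, with no score or read count, so the depth is unknown. With 1 library per group there is no replicate check and no test between CPI-0209 and DMSO; the values below describe these libraries. Where nothing was called, the mark may still be present below the calling threshold. Read depth and background also set how many and how wide the calls are; neither can be seen in the lists, and their part in the differences below was not tested. Genome-wide, the lists covered 113.8 Mb for H3K27me3 CPI-0209, 315.1 Mb for H3K27me3 DMSO, 226.3 Mb for EZH2 CPI-0209 and 193.4 Mb for EZH2 DMSO. Intervals measure where chromatin was called and not RNA, so the labelled cell line could not be checked against marker genes, and whether any PAX gene was expressed was not measured. Domains are intervals of a list merged where they overlap or touch.

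RefSeq promoter windows of GRCh38.p14, 250 bases before to 50 after a transcription start, were listed for 8 of the 9 genes (not PAX1) and for 15812 protein-coding genes. They held 19 PAX starts, 9 of them in PAX6. The windows of the starts on which the results below turn are shown 5′ to 3′ on the strand of the gene, with each CG dinucleotide in capitals. PAX4 (chr7:127618093-127618392, minus strand) carried H3K27me3 without EZH2. PAX5 (chr9:37034219-37034518, minus strand) and PAX7 (chr1:18630596-18630895, plus strand) carried both in both conditions, at the heads of the longest marked genes of the family. PAX8 (chr2:113278872-113279171, minus strand) carried no H3K27me3. The outermost start of PAX6 (chr11:31817912-31818211, minus strand) was marked and an inner one (chr11:31804992-31805291, minus strand) was not.
PAX4: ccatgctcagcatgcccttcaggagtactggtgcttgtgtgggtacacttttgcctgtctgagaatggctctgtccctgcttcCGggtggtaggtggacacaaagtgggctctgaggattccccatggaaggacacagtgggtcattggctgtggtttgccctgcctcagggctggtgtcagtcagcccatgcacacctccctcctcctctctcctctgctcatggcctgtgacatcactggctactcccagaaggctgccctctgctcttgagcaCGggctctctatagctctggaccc
PAX5: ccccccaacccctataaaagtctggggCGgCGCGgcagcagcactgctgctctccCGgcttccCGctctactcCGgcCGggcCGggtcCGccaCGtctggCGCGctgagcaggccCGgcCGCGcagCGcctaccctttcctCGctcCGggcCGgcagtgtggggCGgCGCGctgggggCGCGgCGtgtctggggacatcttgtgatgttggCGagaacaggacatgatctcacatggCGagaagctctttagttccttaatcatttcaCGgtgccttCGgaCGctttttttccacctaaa
PAX7: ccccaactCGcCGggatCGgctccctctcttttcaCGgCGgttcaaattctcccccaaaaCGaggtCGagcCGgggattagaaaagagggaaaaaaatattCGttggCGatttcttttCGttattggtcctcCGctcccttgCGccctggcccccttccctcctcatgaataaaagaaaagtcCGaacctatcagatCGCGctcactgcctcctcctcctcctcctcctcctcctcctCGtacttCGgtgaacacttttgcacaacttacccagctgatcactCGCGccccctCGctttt
PAX8: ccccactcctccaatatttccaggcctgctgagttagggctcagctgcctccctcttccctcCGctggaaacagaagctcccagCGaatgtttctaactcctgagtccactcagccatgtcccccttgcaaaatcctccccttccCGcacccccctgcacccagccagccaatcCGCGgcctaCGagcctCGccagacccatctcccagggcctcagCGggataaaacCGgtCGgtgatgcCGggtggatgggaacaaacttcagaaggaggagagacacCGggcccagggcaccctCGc
PAX6, outermost start: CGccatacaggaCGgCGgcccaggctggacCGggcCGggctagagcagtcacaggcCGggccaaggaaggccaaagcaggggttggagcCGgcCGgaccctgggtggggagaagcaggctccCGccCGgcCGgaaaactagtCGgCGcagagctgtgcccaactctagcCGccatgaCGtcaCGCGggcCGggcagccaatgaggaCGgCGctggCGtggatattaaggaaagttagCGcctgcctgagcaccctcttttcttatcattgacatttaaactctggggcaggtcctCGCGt
PAX6, inner start: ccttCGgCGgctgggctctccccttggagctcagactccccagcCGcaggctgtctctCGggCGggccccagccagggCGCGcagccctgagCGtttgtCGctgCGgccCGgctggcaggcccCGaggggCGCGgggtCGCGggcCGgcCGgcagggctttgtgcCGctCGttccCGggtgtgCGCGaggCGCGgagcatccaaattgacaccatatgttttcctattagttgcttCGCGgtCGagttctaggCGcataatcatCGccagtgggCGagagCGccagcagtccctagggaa

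H3K27me3 was called on 8 of the 9 PAX records with flanks in CPI-0209 and on 8 in DMSO, the exception in both being PAX8. Of all protein-coding records, 24.5% had any H3K27me3 in CPI-0209 and 34.2% in DMSO. The covered share of a PAX gene had a median of 45.0% in CPI-0209 and 68.7% in DMSO, with ranges of 0 to 97.1% and 0 to 98.2%; over all protein-coding genes both medians were 0 and the means were 8.81% and 16.7%. Over stretches under 2 overlapping intervals the CPI-0209 median of the PAX genes was 4.65%. With the longer DMSO list shortened to the covered length of the CPI-0209 list by its widest intervals, the DMSO median was 0%, which turned the order of the medians. The share was lower in CPI-0209 at 7 PAX genes, higher at PAX1 and 0 in both at PAX8. It was lower at 92.9% of the 6828 protein-coding genes covered in DMSO, so this direction is the common one. The direction turned at PAX4, PAX5, PAX6 and PAX9 when the DMSO list was so shortened, and at PAX1 when only stretches under 2 overlapping intervals were read. In length, the 9 windows held 305.3 kb of H3K27me3 in CPI-0209 and 476.2 kb in DMSO, out of 683.0 kb. EZH2 was called on 8 PAX genes in CPI-0209 and 8 in DMSO, the exception being PAX4, against 75.1% and 58.8% of all protein-coding genes. Its median share was 50.5% in CPI-0209 and 53.6% in DMSO (36.3% and 19.4% over stretches under 2 intervals, the other order), and its length 395.8 kb and 359.4 kb. The widest domain touching a PAX gene had a median of 18.8 kb in CPI-0209 and 30.6 kb in DMSO for H3K27me3, and of 26 kb in both for EZH2. Over stretches under 2 intervals it was 4.2 kb for H3K27me3 in CPI-0209, and 13.4 kb in CPI-0209 and 8.4 kb in DMSO for EZH2; with the DMSO list shortened it was 0 kb for H3K27me3 in DMSO, below CPI-0209.

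**Figure D1:**
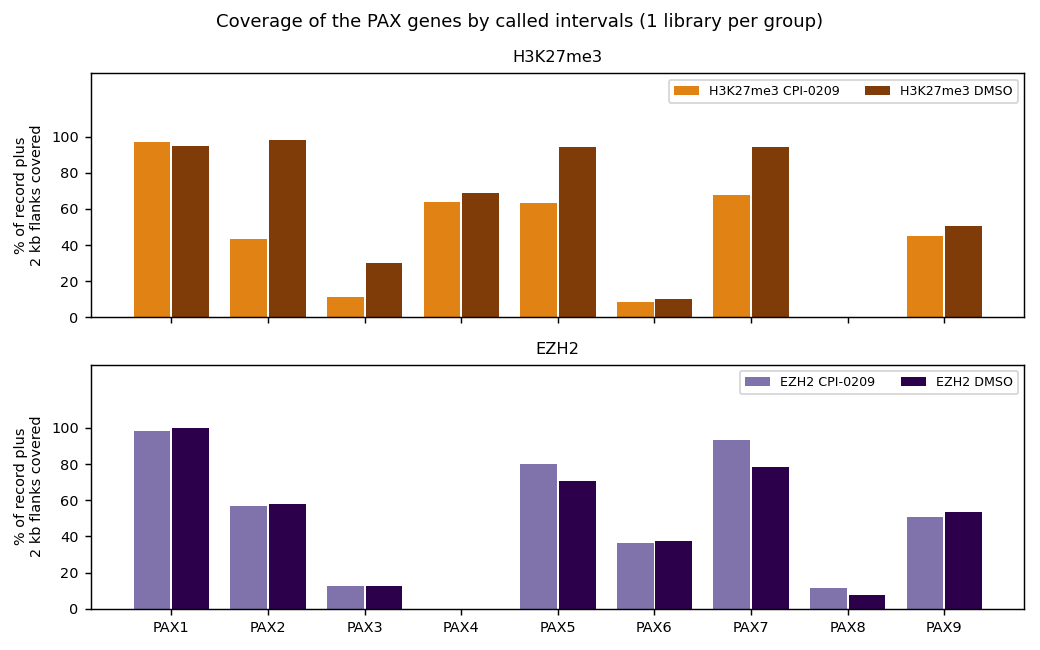
Percent of each PAX gene record plus 2 kb flanks covered by called intervals, for H3K27me3 (upper panel) and EZH2 (lower panel), CPI-0209 bars left of DMSO bars, 1 library per bar. H3K27me3 bars differ most at PAX2, PAX5 and PAX7, EZH2 is at 0 at PAX4 and H3K27me3 at 0 at PAX8.

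Marking at both ends of the record, within 2 kb of each, was scored as a measure that does not need the strand. H3K27me3 lay at both ends of 3 PAX genes in CPI-0209 (PAX1, PAX2 and PAX5), against 8.68% of protein-coding genes, and of 4 in DMSO (with PAX4 as well), against 15.2%. Of the protein-coding genes with both ends in DMSO, 56.3% had both in CPI-0209. The CPI-0209 count was 1 over stretches under 2 intervals, and the DMSO count 2 with its list shortened. EZH2 lay at both ends of PAX1, PAX2 and PAX5 in each condition, against 25.9% of protein-coding genes in CPI-0209 and 17.5% in DMSO. The EZH2 DMSO count was 2 with a window of 1 kb, 2 with at least 50% of the window covered and 3 with a window of 5 kb. In CPI-0209 these counts were 3, 3 and 4. The PAX5 record began at 36833269 and its EZH2 DMSO domain at 36835201, close to the limit of the end window. At least 1 end carried H3K27me3 at 8 PAX genes in CPI-0209 and 8 in DMSO (backgrounds 21.7% and 31.3%), and EZH2 at 8 and 7 (71.5% and 54.6%).

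PAX1 and PAX9 act in the sclerotome, from which vertebrae form, and in the thymus; PAX9 is also needed for teeth. PAX1 (chromosome 20, 21705664 to 21718481) was under H3K27me3 for 97.1% of its window in CPI-0209 and 94.8% in DMSO, and under EZH2 for 98.3% and 100%. This is the compact pattern of the family: each list held a single domain over the whole record, and the H3K27me3 domain measured 21.4 kb in CPI-0209 and 30.6 kb in DMSO. It began at position 21698601 in CPI-0209 and 21689001 in DMSO, and ended at 21720000 and 21719600, so most of the added DMSO length lay outside the window. With 10 kb flanks in place of 2 kb, the H3K27me3 share of PAX1 was lower in CPI-0209, with a difference of -7.73 percentage points. PAX9 (chromosome 14, 36657568 to 36679362) was covered by H3K27me3 over 45.0% in CPI-0209 and 50.5% in DMSO, and by EZH2 over 50.5% and 53.6%. All 4 PAX9 domains held its outermost start and ended 10.0 to 11.8 kb into the gene, leaving the rest of the record unmarked. SLC25A21, a mitochondrial carrier gene, overlaps the far end of PAX9 and shared no H3K27me3 domain with it.

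PAX2 shapes the kidney, eye and ear, PAX5 commits cells to the B lineage, and PAX8 is needed for the thyroid and kidney. PAX2 (chromosome 10, 100735396 to 100829944) was 98.2% covered by H3K27me3 in DMSO, in 3 domains of 31.2 to 59.6 kb. In CPI-0209 it was 43.4% covered, in 6 pieces of 1.0 to 18.8 kb, with gaps of unmarked sequence between them. All 6 pieces overlapped EZH2 of CPI-0209 and 5 overlapped EZH2 of DMSO. EZH2 itself covered 57.0% of PAX2 in CPI-0209 and 58.0% in DMSO, in 6 and 5 domains. PAX5 (chromosome 9, 36833269 to 37034268) is the longest record of the family, 201 kb. H3K27me3 covered 63.4% of it in CPI-0209, in 16 pieces of 0.8 to 23.4 kb, and 94.1% in DMSO, in 6 domains of 10.0 to 72.0 kb. EZH2 covered 79.8% of PAX5 in CPI-0209 and 70.9% in DMSO, the opposite order to the mark. Only 5.01% of the PAX5 window lay under 2 overlapping H3K27me3 intervals in CPI-0209, against 80.4% in DMSO, while for EZH2 these shares were 57.0% and 9.89%. PAX5 holds 193.0 kb of the 476.2 kb of H3K27me3 over the family in DMSO, so sums over the genes lean on it.

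PAX8 (chromosome 2, 113215997 to 113278921) was the only member without H3K27me3 in either condition. EZH2 covered 11.4% of it in CPI-0209 and 7.77% in DMSO. A domain of 4.00 kb lay over its outermost start in CPI-0209, reaching 1.08 kb upstream and 2.92 kb downstream, and no EZH2 domain lay there in DMSO. Inside the gene, a 3.60 kb domain in CPI-0209 overlapped a 5.20 kb domain in DMSO, at 36.3 to 39.9 kb and 37.1 to 42.3 kb from the start. EZH2 at the outermost start in CPI-0209 and not in DMSO was also read at 21.1% of protein-coding genes, so PAX8 shares this with many. With the longer EZH2 list shortened to its widest intervals, PAX8 had no EZH2 in CPI-0209. PAX8-AS1, the antisense RNA gene within the record, carried neither H3K27me3 nor EZH2 on the base of its 2 listed starts in either condition. The 5.20 kb EZH2 domain of DMSO began at position 113236601, close to the PAX8-AS1 start at 113236269.

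PAX3 and PAX7 mark neural crest and muscle progenitors, and PAX7 is the marker of satellite cells, the stem cells of muscle. PAX3 (chromosome 2, 222199887 to 222298998) was covered by H3K27me3 over 11.4% in CPI-0209, in 1 domain, and over 29.9% in DMSO, in 5. The domain over its start measured 19.0 kb in CPI-0209 and 40.2 kb in DMSO. The other 4 DMSO domains, of 2.6 to 5.0 kb, lay between 20.2 and 77.6 kb into the gene and had no counterpart in CPI-0209; none of them overlapped EZH2 in either condition. EZH2 at PAX3 had the same edges in both conditions, a 26.0 kb domain covering 12.6% of the window. RNF228, 15.2 kb upstream of the PAX3 start, was the only other protein-coding record on an H3K27me3 DMSO domain of a PAX gene. Its covered share was 42.5% in CPI-0209 and 100% in DMSO.

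PAX7 (chromosome 1, 18630846 to 18748866) held the widest domain of the family. H3K27me3 covered 67.5% of it in CPI-0209, in 9 pieces of 3.20 to 25.4 kb, and 94.4% in DMSO, in 1 domain of 126.4 kb. EZH2 covered 93.4% in CPI-0209, in 2 domains of 38.4 and 80.4 kb, and 78.5% in DMSO, in 4 domains of at most 40.4 kb. As at PAX5, the mark covered less of the gene in CPI-0209 and EZH2 more. All 9 H3K27me3 pieces of CPI-0209 overlapped EZH2 in both conditions. Some gaps between pieces were narrow: the piece over the start ended at position 18649200 and the next began at 18650001. Pieces were not counted again with such gaps joined, here or at PAX2 and PAX5. Both paralogues ended the mark short of the 3′ end of the record: no list marked that end of PAX3 or PAX7.

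PAX4 and PAX6 act in the pancreas, where PAX4 favours insulin-producing beta cells, and PAX6 is the master regulator of the eye. PAX4 (chromosome 7, 127610292 to 127618142) was covered by H3K27me3 over 63.6% in CPI-0209 and 68.7% in DMSO, with domains of 7.8 kb in CPI-0209 and 11 kb in DMSO over both of its listed starts. No EZH2 was called on PAX4 in either condition. At the outermost start, H3K27me3 in both conditions with EZH2 in neither was read at 30 of 15812 protein-coding genes (0.190%). Under 2 overlapping H3K27me3 intervals lay 0% of the PAX4 window in CPI-0209 and 63.6% in DMSO. The end of PAX4 away from the start was marked in DMSO alone: the domain edge lay at position 127612601 in CPI-0209 and 127612001 in DMSO, a difference of a few steps of the 200 bp grid across the limit of the end window.

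PAX6 (chromosome 11, 31789026 to 31817961) had little H3K27me3, 8.38% in CPI-0209 and 10.2% in DMSO, and more EZH2, 36.3% and 37.5%. The mark lay mostly upstream: its domain reached 3.64 kb upstream and 0.760 kb downstream of the outermost start in CPI-0209, and 19.8 kb and 1.36 kb in DMSO. EZH2 reached further into the gene, 9.96 kb downstream in CPI-0209 and 10.4 kb in DMSO. Of the 9 PAX6 starts, the outermost carried H3K27me3 and EZH2 in both conditions. The next 2, at 5.24 and 8.00 kb, carried EZH2 alone in both, and the start at 10.3 kb EZH2 in DMSO alone. The remaining 5, the farthest at 17.3 kb, carried neither in any list. The difference at 10.3 kb rests on a small shift of an edge. That start is at position 31807622, and the downstream edge of EZH2 lay at 31808001 in CPI-0209 and 31807601 in DMSO. The start of PAX6-AS1, the antisense RNA gene that overlaps the head of PAX6, also carried EZH2 without H3K27me3 in both conditions. In DMSO this rests on a narrow margin. The start lies at position 31816566 and the H3K27me3 domain of PAX6 began at 31816601, less than a step of the 200 bp grid away.

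**Figure D2:**
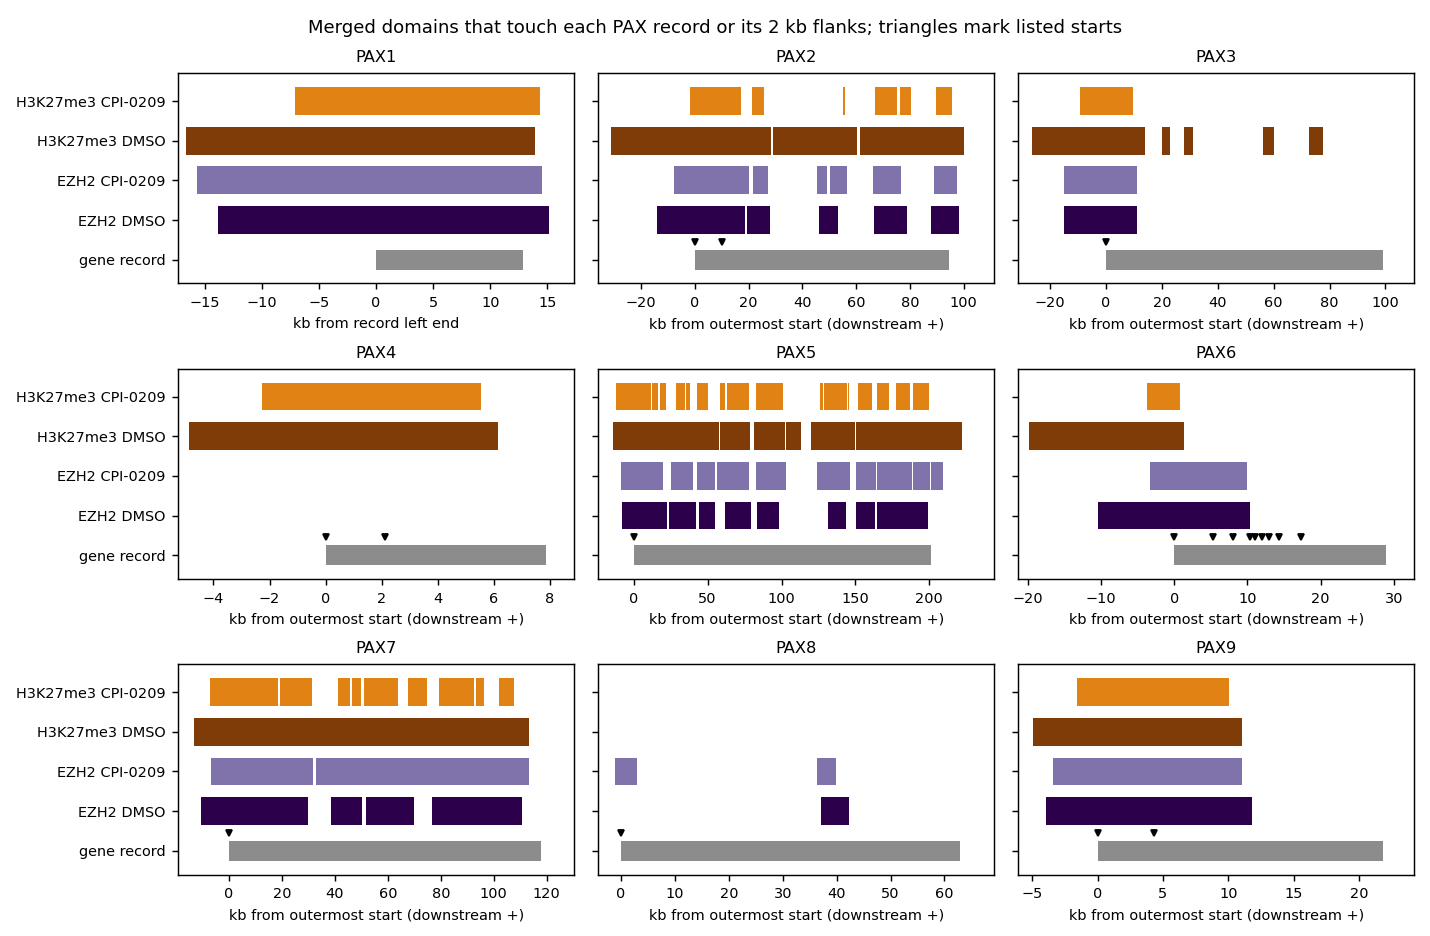
Merged domains at each PAX gene in the 4 lists (rows; CPI-0209 above DMSO), drawn against distance in kb from the outermost start, downstream to the right (for PAX1, from the lower-numbered record end); grey bars are the gene records and triangles the listed starts. H3K27me3 of CPI-0209 is broken into 16 pieces at PAX5, 9 at PAX7 and 6 at PAX2, and is a single shorter domain at PAX1, PAX3, PAX4, PAX6 and PAX9. Some of the pieces are parted by narrow gaps.

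The outermost start was under H3K27me3 at 7 of 8 PAX genes in CPI-0209 and at the same 7 in DMSO, all but PAX8. The background was 15.1% of protein-coding starts in CPI-0209 and 20.8% in DMSO, and 69.7% of the 3288 starts marked in DMSO were marked in CPI-0209. EZH2 lay on the start of 7 PAX genes in CPI-0209 and 6 in DMSO, against backgrounds of 66.8% and 48.5%. Of the 7 starts with H3K27me3 in DMSO, 6 carried EZH2 in DMSO, where the background was 72.0%. Over stretches under 2 H3K27me3 intervals alone, 2 of the 8 starts were covered in CPI-0209, and with the H3K27me3 DMSO list shortened 4 were covered in DMSO.

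At the 7 genes the H3K27me3 domain that held the start was narrower in CPI-0209 than in DMSO, with medians of 18.8 and 40.2 kb. It reached less far both upstream and downstream at 7 of 7. Over protein-coding starts marked in both conditions, 98.1% had a narrower domain in CPI-0209 and 88.7% were drawn in on both sides, so the PAX genes followed the common direction. The medians over all such starts were 5.60 kb in CPI-0209 and 20.8 kb in DMSO. The upstream side of PAX2 showed the widest gap, with a reach of 1.80 kb in CPI-0209 and 31.2 kb in DMSO. The downstream side did so at PAX7, with 18.4 kb and 113.2 kb, and PAX5 had 11.7 kb and 57.5 kb. In CPI-0209 both of these domains ended at a narrow gap. The next piece began 19.2 kb from the start at PAX7 and 12.5 kb at PAX5. EZH2 start domains differed less: among the 6 genes with EZH2 at the start in both conditions, 5 were narrower in CPI-0209 and PAX3 was equal, with medians of 27 kb in CPI-0209 and 28.1 kb in DMSO. Over all protein-coding starts with EZH2 in both, 64.3% were narrower. EZH2 was shorter on both sides at 2 of the 6 (PAX6 and PAX9), against 35.7%. At PAX2, the EZH2 domain measured 28.0 kb in CPI-0209 and 32.6 kb in DMSO, and the H3K27me3 domain 18.8 kb and 59.6 kb.

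**Figure D3:**
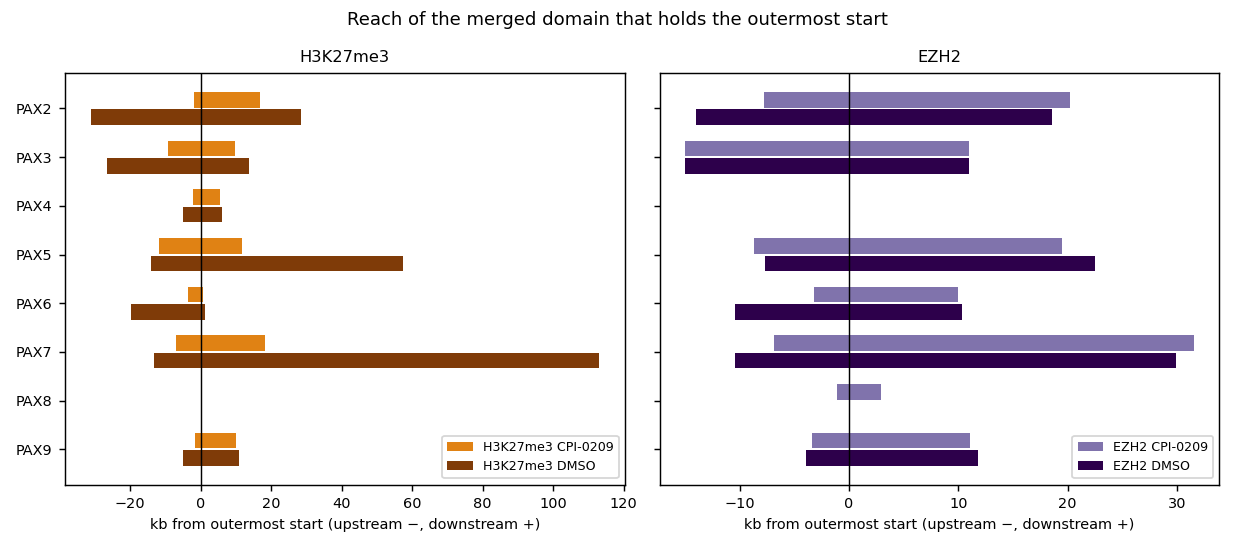
Reach in kb of the merged domain that holds the outermost start, upstream to the left of 0 and downstream to the right, with the CPI-0209 bar above the DMSO bar for each gene; the 2 panels have different scales. H3K27me3 bars of CPI-0209 lie inside those of DMSO at all 7 marked genes, and PAX8 has only an EZH2 bar, in CPI-0209.

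Of the H3K27me3 length called at the 9 genes in DMSO, 64.0% was called in CPI-0209 as well, against 42.5% over all protein-coding genes. Over stretches under 2 overlapping intervals in each list the share at the PAX genes was 15.0%. DMSO domains held 99.9% of what was called in CPI-0209, and the remaining 0.4 kb was at PAX1. By gene, the retained share was 100% at PAX1, 92.6% at PAX4, 89.0% at PAX9, 82.1% at PAX6, 71.5% at PAX7, 67.4% at PAX5, 44.2% at PAX2 and 38.3% at PAX3. Counted in this way, the 4 lowest shares belong to the 4 records longer than 90 kb. Only length inside the record plus 2 kb flanks enters these shares, so differences farther out are left out. At PAX6 the whole H3K27me3 domain measured 4.4 kb in CPI-0209 and 21.2 kb in DMSO, and at PAX1 21.4 and 30.6 kb. The order by record length thus holds for the clipped length, and over whole domains it was not tested. Pooled over the 3704 protein-coding genes of 90 kb or longer, the retained share was 37.0%. Leaving out PAX5, the retained share of the family was 61.7%. Of the 19 DMSO domains, 14 met a CPI-0209 domain (51.1% of the 11596 DMSO domains that touched a protein-coding record or its flanks did), and the 5 that did not (4 at PAX3 and 1 of 10.0 kb at PAX5) overlapped EZH2 in neither condition, as did 69.6% of such domains at protein-coding genes. Of the 14 that met one, 13 overlapped EZH2 in DMSO, against 83.4%, and PAX4 was the exception. Of the 36 CPI-0209 domains, 35 overlapped EZH2 of CPI-0209 and 31 EZH2 of DMSO, where 94.7% and 82.5% of those at protein-coding genes did, so these overlaps are the usual ones.

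The H3K27me3 of DMSO cells was then split by whether EZH2 was called on the same bases in DMSO. Under EZH2 lay 343.3 kb, of which 79.7% was called in CPI-0209, and without EZH2 132.9 kb, of which 23.6% was. Over all protein-coding genes the shares were 72.4% and 11.5%, the same order. Within genes, PAX2 kept 70.3% under EZH2 and 6.57% without, PAX3 90.8% and 0%, PAX5 79.9% and 29.6%, and PAX7 78.7% and 36.1%. PAX4 had none of its mark under EZH2 and kept 92.6% of it; leaving PAX4 out, 19.1% of the length without EZH2 was kept. Distance from the start divided the mark in the same manner, by a split at 10 kb that was chosen after the maps had been seen. It takes in the 8 PAX genes with a listed start, so PAX1, fully retained inside its record plus 2 kb flanks, is not in it. The length counted was that inside the record plus 2 kb flanks, so at the PAX genes the near part ended 2 kb upstream. Within 10 kb of the outermost start 97.1% of this DMSO length was called in CPI-0209, and farther from it 56.5%. The 15812 protein-coding genes with a listed start gave 51.4% and 37.0%. The far share of the family rests on PAX2, PAX5 and PAX7. Leaving them out, 94.8% was called in CPI-0209 within 10 kb, and 0.161% of 19.8 kb farther away. At PAX3 the shares were 98.3% and 0%, at PAX2 98.3% and 36.6%, at PAX5 100% and 65.2%, and at PAX7 100% and 68.2%. Length more than 2 kb upstream is in none of these shares. At PAX2 the start domain reached 1.80 kb upstream in CPI-0209 and 31.2 kb in DMSO, and at PAX6 3.64 and 19.8 kb. EZH2 and nearness to the start overlap at these genes and were not separated.

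**Figure D4:**
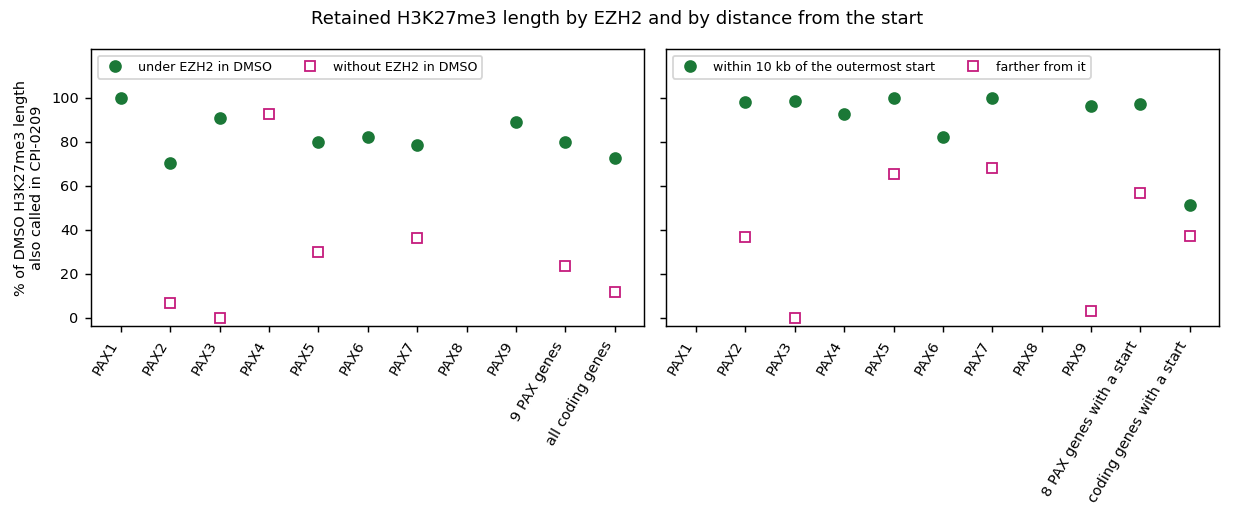
Percent of the DMSO H3K27me3 length also called in CPI-0209, for each PAX gene with such length and for pooled genes; the left panel splits the length by EZH2 in DMSO and pools the 9 PAX genes and all protein-coding genes, and the right panel splits it by distance from the outermost start and pools only genes with a listed start (8 PAX genes, 15812 protein-coding genes). Filled circles stand above open squares at every gene that has both, and PAX4 has a square alone at 92.6% on the left. Only length inside the record plus 2 kb flanks is counted.

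EZH2 calls at the PAX genes were mostly common to both conditions. Of the EZH2 length in DMSO 95.0% was called in CPI-0209, against 79.7% over all protein-coding genes, and all 22 DMSO domains met a CPI-0209 domain, as did 12096 of the 13433 that touched a protein-coding record or its flanks. The CPI-0209 list added 54.5 kb, of which PAX5 and PAX7 had the most: EZH2 measured 163.6 kb in CPI-0209 and 145.3 kb in DMSO at PAX5, and 114.0 kb and 95.8 kb at PAX7. By gene, EZH2 covered a higher share in CPI-0209 at 3 genes (PAX5, PAX7 and PAX8) and a lower share at 4, with equal values at PAX3 and PAX4. The direction turned at PAX2 and PAX9 over stretches under 2 intervals, and at PAX8 with the longer list shortened. Of protein-coding genes with any EZH2, 53.6% had a higher share in CPI-0209. Stretches under 2 EZH2 intervals measured 282.5 kb in CPI-0209 and 107.6 kb in DMSO at the family, and for H3K27me3 60.2 kb and 399.8 kb. What an overlap of intervals stands for is not stated, and whole lists differ in it too, from 12.9% of the covered length for H3K27me3 CPI-0209 to 62.7% for H3K27me3 DMSO.

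The start windows were compared by their CG dinucleotides, which read the same on both strands; 98.1% of outermost protein-coding windows hold at least 1. The windows shown above differ widely: PAX4 held 2 CG at its outermost start, where 5.79% of protein-coding starts held fewer, and 0 at its inner start. PAX5 held 30, PAX6 24, PAX3 and PAX7 21 each, PAX9 19, PAX2 14 and PAX8 13, against a median of 22 over protein-coding starts. PAX4 is thus far below the other members, while PAX8, without H3K27me3, lies next to PAX2, which had both. Protein-coding starts with H3K27me3 and EZH2 in DMSO had a median of 23 CG (2368 starts), those with H3K27me3 and no EZH2 7 (920 starts), and the 30 starts of the PAX4 pattern 4. Within PAX6 the outermost start, with 24 CG, carried both, and inner starts with 18 and 22 carried EZH2 alone. Inner starts with 5 to 16 CG carried neither in CPI-0209, and 1 of them, at 10.3 kb with 11 CG, carried EZH2 in DMSO. The inner start with 32 CG, the highest count, carried neither in any list and broke this order.

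**Figure D5:**
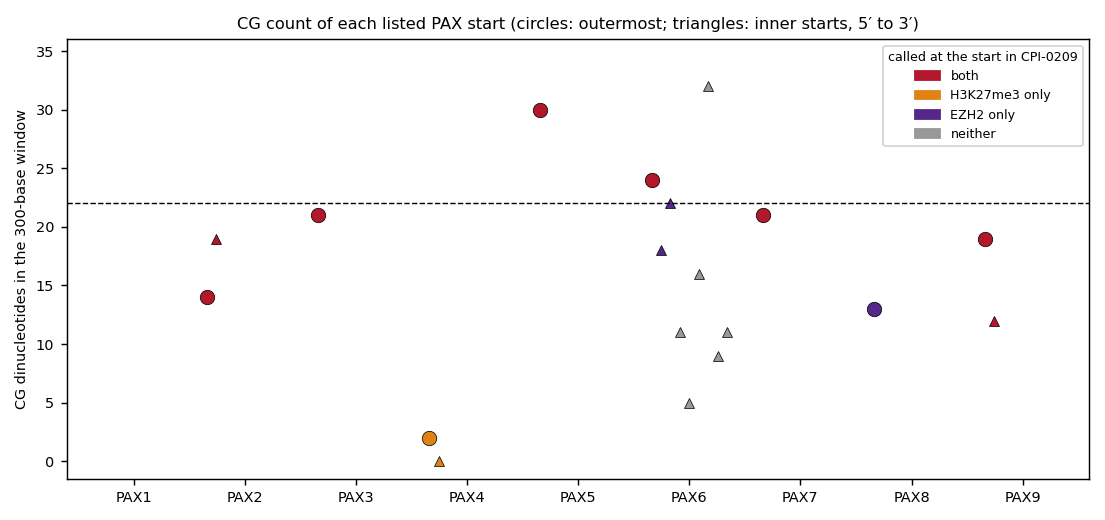
Number of CG dinucleotides in the 300-base window of each listed PAX start; circles are outermost starts, triangles inner starts in 5′ to 3′ order, and colours give what was called on the start in CPI-0209. The dashed line is the median of 22 over protein-coding starts; both PAX4 starts lie at the bottom, and the PAX6 start with 32 CG is grey.

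Partners and targets of the PAX factors were read in 6 lists with 57 genes. H3K27me3 lay at both ends of 29 of them in CPI-0209 and 35 in DMSO, against the backgrounds of 8.68% and 15.2% given above. Of the 35, 29 had both ends in CPI-0209, where the background was 56.3%, 5 had a single end, and CD79A, a B cell receptor chain regulated by PAX5, had neither, where it was 16.6%. None was marked at both ends in CPI-0209 alone. The median covered share was 40.5% in CPI-0209 and 78.9% in DMSO.

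Eye and pancreas genes around PAX6 and PAX4 gave 8 of 12 in CPI-0209 and 9 of 12 in DMSO, among them the eye-field factors SIX3 and RAX and the insulin gene INS, each at 100% in both conditions. The glucagon gene GCG and the lens crystallin CRYAA had no mark in any list. Kidney, ear and eye genes around PAX2 gave 5 of 12 in CPI-0209 and 8 of 12 in DMSO. EYA2, WT1 and RET made the difference, each with a single end in CPI-0209; EYA2, a transcriptional coactivator, had 20.7% in CPI-0209 and 78.9% in DMSO, while its EZH2 share was 52.8% and 23.3%. Thyroid genes around PAX8 gave 5 of 7 in both conditions, among them NKX2-1, FOXE1, HHEX and SLC5A5, the iodide transporter. TG and TSHR of this list were unmarked at both ends in both conditions. Their covered shares were 0% in CPI-0209 and 5.88% and 2.67% in DMSO. PAX8 itself carried none in either condition, unlike the marked partners.

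Neural crest and muscle genes around PAX3 and PAX7 gave 5 of 10 in both conditions, among them the myogenic factors MYOD1 and MYF5, whose covered shares were the same in both (100% and 57.5%). SOX10 carried neither H3K27me3 nor EZH2 in any list, and MITF and the receptor MET carried EZH2 alone. Genes around PAX1 and PAX9 gave 5 of 9 in both. SOX9, the cartilage regulator, was covered more in CPI-0209, 44.7% against 34.1% in DMSO. FOXN1, the thymic epithelial factor, had 25.7% in CPI-0209 and 79.5% in DMSO, with EZH2 over 56.4% in CPI-0209 and 0% in DMSO. B cell genes around PAX5 gave 1 of 7 in CPI-0209, IKZF1, and 3 of 7 in DMSO, with CD79A and CR2. IKZF1, a lymphoid regulator, kept both ends with a share of 8.71% in CPI-0209 against 77.3% in DMSO.

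The protein-coding genes on other chromosomes most like each PAX gene were found by the sum of absolute differences in covered share over the 4 lists, among records of 0.5 to 2 times its length. PAX1 was nearest to CHRD, a BMP antagonist, with a sum of 4.74 points, and PAX9 to the nuclear receptor gene NR2E1 (9.83) and LHX9, a LIM homeobox gene (11.5). PAX7 was nearest to OTOF (9.81), PAX5 to DNAH10 (6.53), PAX2 to LGR6 (13.1), PAX3 to CD38 (6.24) and PAX6 to FAM234A (6.91). PAX8, with its low EZH2 and no mark, was nearest to PCBD2 (0.382) and HSP90AA1 (0.554), a chaperone gene. PAX4 had the least close match, TAC3 at 22.8 points, with H3K27me3 over 51.3% in CPI-0209 and 79.1% in DMSO and EZH2 in neither. These matches rest on 4 values per gene.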

How the data were processed

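The data are the called intervals of 4 ChIP-seq libraries of HT1376 cells. Per the file headers, each deposited list holds chromosome, start and end; the submitters' processing notes list BWA, SICER and hg38, while roles, versions and thresholds are not given in the sources used here. Every start and width was checked to be a multiple of 200 bp. Positions are printed counting from 1. Intervals of a list overlap, with at most 2 over a position; they were merged where they overlap or touch (Python 3.11.15, pandas 2.3.3, numpy 2.4.6), and the code was tested on simulated lists. Coverage is the share of a gene record plus 2 kb flanks, an end is marked with at least 1 bp in the window of 2 kb either side, and a start is marked when its base is covered. Genes and starts came from RefSeq tables of GRCh38.p14, the assembly of hg38. Exons and introns were not told apart.

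The members, the partner lists and most measures were chosen with earlier results of these data known. Named genes are all PAX genes, up to 3 protein-coding neighbours a side on the same DMSO domain, members of the 6 lists, and the 2 nearest genes by covered share (the text prints the nearest, and both for PAX8 and PAX9); SLC25A21, PAX8-AS1 and PAX6-AS1, which overlap PAX records, were added after their values were seen. Values of some single list members are not reported here. Protein identities had been planned, and no protein table was used here. Domains that touch any protein-coding record or its flanks were counted for comparison. Alternatives were stretches under 2 intervals, the longer list cut to its widest intervals, other flanks, windows and overlaps, and joined gaps. No input list was used, and no test was made.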

Additional observations from a re-analysis of the deposited data

How the results depend on the processing

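Values were called moved beyond 1.5 times the reported count or width, or beyond the exact 95% binomial limits of a share over 200 bp steps, which are not independent. No paired analysis was possible because each group has 1 library. The alternatives left 56 of 80 summary values within these limits. Over stretches under 2 intervals alone, H3K27me3 gave 1 gene with both ends in CPI-0209, a median share of 4.65%, a median widest domain of 4.2 kb and 2 starts in CPI-0209, and 15.0% of its DMSO length retained; EZH2 gave median shares of 36.3% in CPI-0209 and 19.4% in DMSO, widest domains of 13.4 and 8.4 kb, and 91.6% retained. There the difference between CPI-0209 and DMSO turned for PAX1 H3K27me3 (-34.5 points), PAX2 EZH2 (12.9) and PAX9 EZH2 (19.5). With the longer list of an antibody shortened to its widest intervals, H3K27me3 DMSO gave 2 genes with both ends, 4 starts, a median share of 0%, a median widest domain of 0 kb and 68.7% retained, and EZH2 92.7% retained; H3K27me3 turned at PAX4 (63.6), PAX5 (8.72), PAX6 (8.38) and PAX9 (45.0), and EZH2 at PAX8 (-7.77). That cut removes narrow intervals from 1 list of the pair alone. With 10 kb flanks the median shares were 31.7% and 47.8% for H3K27me3 in CPI-0209 and DMSO, and 38.8% for EZH2 in CPI-0209, 93.1% of EZH2 was retained, and PAX1 H3K27me3 turned (-7.73). Asking for at least 1 end gave 8 genes in CPI-0209 and 8 in DMSO for H3K27me3, and 8 and 7 for EZH2. Other causes of these shifts were not tested. Starts were tried under alternatives chosen after seeing the data. Depth is unknown and limits every absence.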
